A study of Mus musculus with 9 samples.

Results

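The genes described are 10 cell junction genes of mouse liver: 6 claudins (Cldn1, Cldn2, Cldn3, Cldn4, Cldn7 and Cldn12), 3 connexins (Gjb1, Gjb2 and Gja1) and Cdh1, which encodes E-cadherin. They were taken by symbol from a table of 24411 genes, and all 10 were present. RNA was sequenced from the livers of 9 mice in 3 groups of 3, at 3 months of age and on a C57BL/6 background. Control mice (cont.) carried Atg7flox/flox without Cre. Atg7-KO mice carried Atg7flox/flox with Alb-Cre, in which the albumin promoter drives Cre in hepatocytes, so that other liver cells keep Atg7, a gene needed to form autophagosomes. The third group, called S351A below, carried by the sample titles Atg7flox/flox, Alb-Cre and the p62 S351A substitution on both copies, a serine changed to alanine in the part of p62 that binds KEAP1. All 3 groups thus shared the floxed Atg7 allele, and by the labels S351A differed from Atg7-KO in the p62 allele.

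Claudins are membrane proteins that line up into the strands of tight junctions, and in the liver these strands seal the bile canaliculus from the blood. Connexins assemble into gap junction channels that let ions and small molecules pass between neighbouring hepatocytes, and E-cadherin holds epithelial cells together at adherens junctions through catenins. Hepatocytes make chiefly Cldn1, Cldn2, Cldn3, Gjb1 and Gjb2, while Cldn4 and Cldn7 are known from bile duct epithelium, and E-cadherin is known from bile ducts and from the hepatocytes near the portal vein.

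Library totals were 1875314 to 15426566 counts in cont., 1945469 to 3675041 in Atg7-KO and 713835 to 792366 in S351A, so every S351A library was smaller than every other library. Levels are given as CPM, which are counts brought to a common library total, after TMM scaling, which sets the bulk of genes equal between libraries. The choice of scaling changed the results, as given below. The 20 genes with most counts took 21.5% to 30.5% of each cont. library and 15.4% to 17.7% of each library with Cre. Their part in the effect of the scaling was not tested. Atg7 itself ranged over 42.4 to 57.7 CPM in cont. livers, 28.0 to 30.2 CPM in Atg7-KO livers and 21.8 to 24.8 CPM in S351A livers, lower in all 6 libraries with Cre. Its counts cover the whole gene, exons outside the deletion included. Xist and Y-linked genes marked 1 of 3 cont. libraries and 2 of 3 libraries in each other group as female. Hepatocyte markers were present throughout, but 7 of 8 were lower in Atg7-KO than in cont. (18.1% of all genes were), and ductular markers are given beside Cdh1.

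A gene was called changed at an adjusted p under 0.05 (edgeR quasi-likelihood test, Benjamini-Hochberg adjustment over 11199 genes) and a fold change above 1.5. Of the 10 genes, 8 passed the filter on low counts. Cldn4 and Cldn7 did not, and Gja1 passed through the libraries with Cre alone, since none of the 3 cont. libraries reached the count limit. In Atg7-KO against cont., 4 of these 8 were called, where 38% of all genes tested were. Cldn1, Cldn3 and Cdh1 were higher, beside a background of 19.9% called higher, and Gjb1 was lower, beside 18.1% called lower. This even split of directions rests on TMM, which gave 2226 genes higher and 2027 lower. Scaling by total library size gave 4312 and 796, with 6 of the 8 genes higher and none lower, and library sizes without the 20 genes with most counts gave 3777 and 976, with 6 higher and Gjb1 lower. The libraries of the 2 groups did not overlap for 5 of the 8, against 51.6% of all genes. These counts are close to the background, so they say little of the set as a whole, and the data are given gene by gene.

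**Figure D1:**
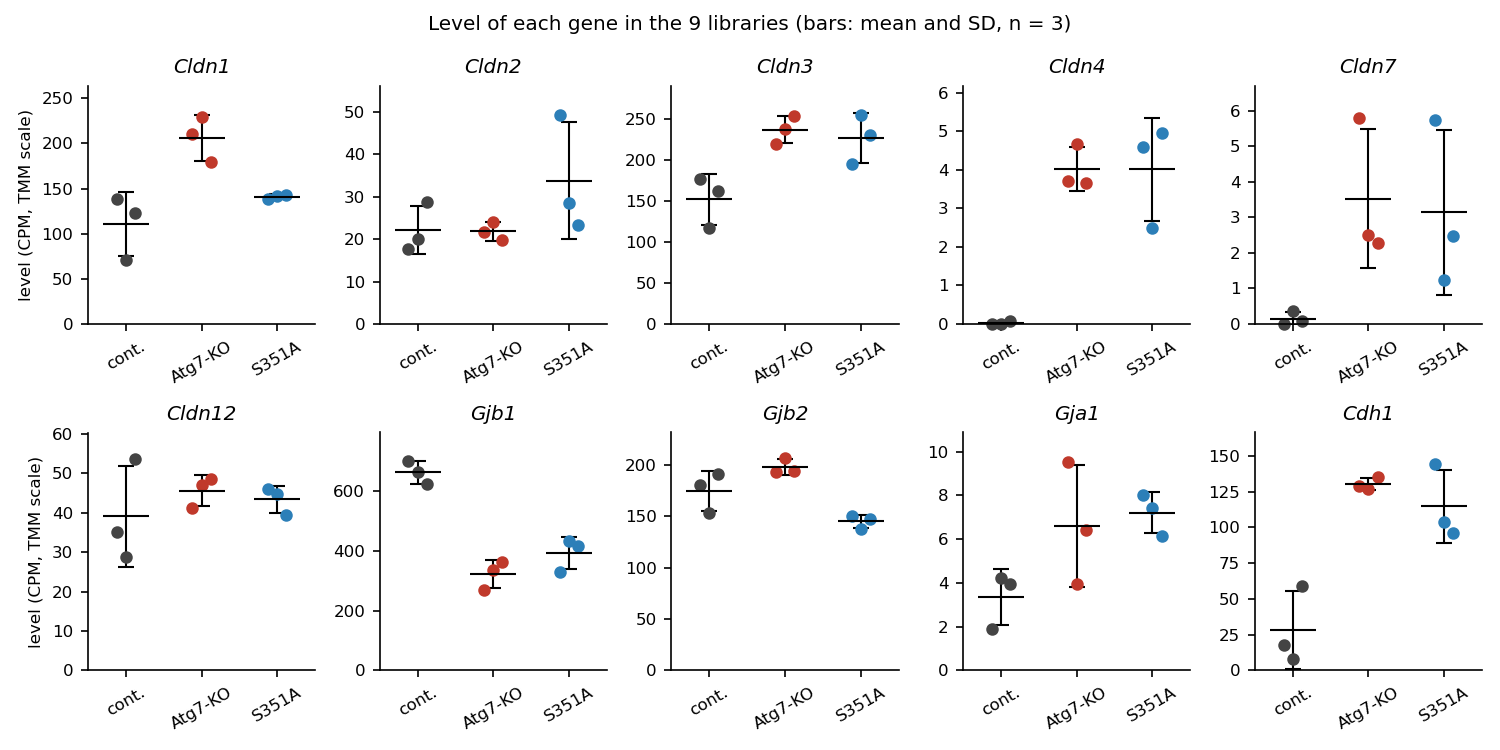
Level of each of the 10 genes in every library, as CPM on the TMM scale (vertical axes, each from 0) for cont., Atg7-KO and S351A, with a bar for the mean and the SD of 3 libraries. Cldn4, Cldn7 and Cdh1 sit low in cont. and higher in both other groups, while Gjb1 lies between 623 and 702 CPM in cont. and no higher than 432 CPM in any library with Cre.

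Per kilobase of exon, which allows genes to be compared with each other, Gjb1 was the highest of the 10 in cont. livers at 388 ± 23.2 CPM per kb (SD, n = 3), followed by Cldn3 at 121 ± 24.8 and Gjb2 at 72.6 ± 8.16. Cldn1 came next at 22.9 ± 7.38 CPM per kb. Cldn12 (9.25 ± 3.03 CPM per kb), Cldn2 (6.67 ± 1.72) and Cdh1 (6.15 ± 5.92) did not differ beyond their spread. Gja1, Cldn7 and Cldn4 lay at or below 0.327 CPM per kb on average. In Atg7-KO livers the gap at the top closed and the order in the middle changed. Gjb1 and Cldn3 then stood at 189 ± 27.6 and 188 ± 13.0 CPM per kb and their libraries overlapped, and Cdh1, at 28.5 ± 0.865 CPM per kb, lay above Cldn12 (10.8 ± 0.932) and Cldn2 (6.57 ± 0.657). The S351A order was Gjb1 (230 ± 31.9 CPM per kb), Cldn3 (180 ± 23.6), Gjb2 (60.3 ± 2.71), Cldn1 (29.1 ± 0.561) and Cdh1 (25.1 ± 5.54), where Gjb1 overlapped Cldn3 and Cldn1 overlapped Cdh1.

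Of the 4 claudins tested, Cldn1 and Cldn3 were called higher in Atg7-KO and Cldn2 and Cldn12 were not called, and differences between claudins were not tested. Cldn1, a strand-forming claudin of hepatocytes on the minus strand at chr16:26356642-26371841 (mm10), measured 139, 70.4 and 123 CPM in cont. and 211, 229 and 179 CPM in Atg7-KO. All Atg7-KO libraries lay above all cont. libraries, and the rise was 1.87-fold (log2 fold change 0.90 ± 0.25 SE, edgeR adjusted p = 0.0123). Without Atg7-KO replicate 2 the call was lost (adjusted p = 0.057 in the same edgeR test). In bulk tissue, fewer cells of a type and less RNA per cell cannot be told apart, and this holds for every gene below.

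Cldn3 is the claudin with most RNA per kilobase in these livers and lies at chr5:134986214-134987472 on the plus strand. It measured 177, 117 and 162 CPM in cont. and 220, 238 and 253 CPM in Atg7-KO, again with no overlap. The rise of 1.56-fold (log2 0.64 ± 0.22 SE, edgeR adjusted p = 0.0336) was smaller than that of Cldn1 and close to the threshold. It was lost with sex as a covariate (edgeR adjusted p = 0.0503), without a filter (0.0865), and on leaving out cont. replicate 2 (0.126) or Atg7-KO replicate 1 (0.0679), 2 (0.0988) or 3 (0.124). The antisense gene Wbscr25 overlaps Cldn3 and had 0 to 12 counts per library, where Cldn3 had 170 to 1807. Whether the counting used strand is not given in the sources used here. No 75-base stretch of the Cldn3 transcript occurred on either strand in a transcript of another gene, Wbscr25 included. Shorter stretches were not checked.

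Cldn2 forms channels for small cations and water, and is known in rodent liver from the hepatocytes towards the central vein. It lay at 17.8, 20.1 and 28.7 CPM in cont. and at 21.8, 24.0 and 19.7 CPM in Atg7-KO, within the same range (log2 fold change -0.06, 95% interval -0.65 to 0.52, edgeR adjusted p = 0.88). Cldn12, an unusual claudin without the tail that binds PDZ scaffolds, lay at 35, 28.9 and 53.5 CPM in cont. and at 41.1, 47.0 and 48.5 CPM in Atg7-KO. Its difference was 0.19 on the log2 scale (95% interval -0.31 to 0.68, edgeR adjusted p = 0.552), an interval that takes in a rise of the size of that of Cldn3. Scaling by total counts brought Cldn12 past the threshold as higher (edgeR adjusted p = 0.0118), as did library sizes that omit the 20 most abundant genes (0.0343). For both genes the range of the cont. libraries took in all the Atg7-KO values.

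Cldn4 and Cldn7, claudins of bile duct and other simple epithelia, had at most 1 count in any cont. library. Cldn4 had 0, 0 and 1 counts in the cont. libraries, of which the deepest held 15426566 counts in all, and 16, 13 and 8 counts in Atg7-KO. Against a floor of 3 counts per library this is at least 2.1-fold higher in Atg7-KO. Cldn7 had 0, 1 and 1 counts in cont. and 25, 7 and 5 in Atg7-KO, at least 1.85-fold higher by the same floor. Both were under the filter and so were not tested with the others. When every gene with a count was tested, both were called higher in Atg7-KO (edgeR adjusted p = 6.2e-06 for Cldn4 and 8.57e-05 for Cldn7). In that fit 27.2% of all genes were called in either direction, and 2714 of 19081 were called higher.

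The promoters of the 4 claudins that were higher in Atg7-KO are printed here because these genes moved in the same direction from very different levels in cont. livers. Each line gives the 250 bases before a transcription start of RefSeq (build GRCm38.p6), 5′ to 3′ on the strand of the gene. Capitals mark every match, on either strand, to 4 motifs: TGACNNNGC (core of the NRF2 site), GGAATG (TEAD), CAGGTG (the E-box read by Snail-type repressors, CACCTG on the other strand) and GGGCGG (Sp1, CCGCCC on the other strand). Cldn7 has 2 RefSeq starts, and the window of the first, which is also where the gene begins, is shown.
Cldn1 promoter, chr16:26371840-26372089, minus strand: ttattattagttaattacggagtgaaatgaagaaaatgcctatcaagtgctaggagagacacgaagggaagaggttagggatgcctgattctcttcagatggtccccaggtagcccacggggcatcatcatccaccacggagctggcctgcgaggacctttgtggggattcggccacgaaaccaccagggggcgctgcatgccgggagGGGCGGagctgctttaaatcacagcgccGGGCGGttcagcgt
Cldn3 promoter, chr5:134985964-134986213, plus strand: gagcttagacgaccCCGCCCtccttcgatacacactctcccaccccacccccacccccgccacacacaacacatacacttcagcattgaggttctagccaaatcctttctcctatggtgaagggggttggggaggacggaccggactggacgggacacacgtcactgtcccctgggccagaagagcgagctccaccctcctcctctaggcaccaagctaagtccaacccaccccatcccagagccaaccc
Cldn4 promoter, chr5:134946935-134947184, minus strand: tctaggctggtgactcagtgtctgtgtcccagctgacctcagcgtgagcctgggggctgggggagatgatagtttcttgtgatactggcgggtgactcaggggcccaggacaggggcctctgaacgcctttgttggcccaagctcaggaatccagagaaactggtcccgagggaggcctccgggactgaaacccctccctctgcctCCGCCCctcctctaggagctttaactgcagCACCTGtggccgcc
Cldn7 promoter, chr11:69964529-69964778, plus strand: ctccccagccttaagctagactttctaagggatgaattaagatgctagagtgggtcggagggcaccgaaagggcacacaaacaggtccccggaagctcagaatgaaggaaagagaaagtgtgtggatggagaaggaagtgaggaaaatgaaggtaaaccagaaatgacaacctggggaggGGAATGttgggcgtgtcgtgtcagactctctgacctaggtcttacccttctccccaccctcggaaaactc
None of the 4 printed windows held TGACNNNGC, which occurs in 10.2% of the 32851 promoter windows of this length. GGGCGG occurred in 3 of the 4 printed (at positions -42 and -14 before the start in Cldn1, -236 in Cldn3 and -44 in Cldn4) and in 32.7% of all windows. CAGGTG occurred at -14 in Cldn4 and in 17.2% of all windows, and GGAATG at -70 in the Cldn7 window and in 12.6% of all windows. The window of the second Cldn7 start, not shown, held CAGGTG at -97 and -57 and GGGCGG at -6. The windows of Cldn3 and Cldn4 share a neighbourhood, with start sites 39280 bases apart on chromosome 5, but differ in these letters. A match is a description of the letters and no evidence of binding. RefSeq windows were found for 9 of the 10 genes, all but Cdh1.

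Within the RNA of the 6 claudins, scaled by exon length and expressed as shares so that no scaling between libraries enters, the share of Cldn3 averaged 75.8% ± 2.15 in the cont. livers, 74.6% ± 2.7 without Atg7 and 76.9% ± 4.15 with the p62 substitution (SD over 3 libraries). Cldn1 held 14.1% ± 1.83, 16.9% ± 2.25 and 12.5% ± 0.86 in the same order. Cldn2 was the claudin whose share was lower in every Atg7-KO library (2.29% to 2.80%) than in every cont. library (2.92% to 5.00%), along with Cldn12 (4.05% to 4.44% against 4.52% to 7.21%). Cldn4 went from at most 0.0281% in cont. to 0.779% to 0.994% in Atg7-KO, still a small part of all claudin RNA. An exact permutation test of 3 against 3 libraries cannot give a two-sided p under 0.1, so shares are given as descriptions.

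**Figure D2:**
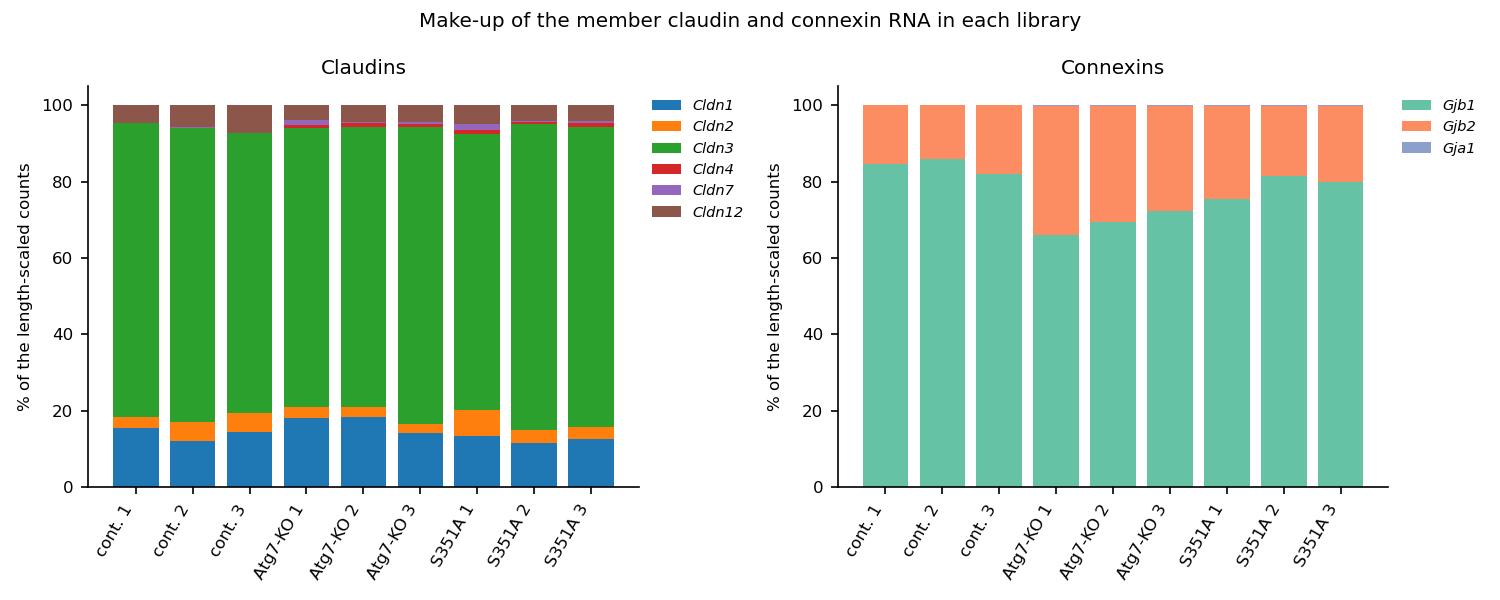
Share of each gene in the length-scaled counts of the 6 claudins (left) and of the 3 connexins (right), in percent, as a stacked bar for each of the 9 libraries. Cldn3 makes up most of the claudin bar throughout, and the Gjb2 part of the connexin bar is largest in the Atg7-KO libraries, at 27.5% to 33.6%.

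Among the connexins, Gjb1 fell in Atg7-KO, and Gjb2 and Gja1 were not called with TMM scaling, a call that turned to higher for both under 2 other scalings, though Gja1 entered the test through the libraries with Cre alone. Gjb1 encodes connexin 32, the main gap junction protein of hepatocytes, on the plus strand at chrX:101376378-101385629. It measured 702, 665 and 623 CPM in cont. and 270, 335 and 362 CPM in Atg7-KO, with no overlap. The level was 2.06-fold lower (log2 fold change -1.04 ± 0.22 SE, edgeR adjusted p = 0.00251). The direction held under all 22 alternatives, with log2 values of -1.14 to -0.51. The value of -0.51 (edgeR adjusted p = 0.0724, not called) came from scaling by total counts alone, which moves the median of all genes up by 0.55. Hepatocyte markers moved with this fall, with a summed level of 55300 to 116000 CPM in cont. and 37800 to 44000 CPM in Atg7-KO, none of them at 0, and their part in it was not tested.

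Gjb2 encodes connexin 26, which joins connexin 32 in hepatocyte gap junctions and is most abundant near the portal vein. It lay at 180, 153 and 191 CPM in cont. and at 193, 207 and 194 CPM in Atg7-KO. Every Atg7-KO library was above every cont. library, yet by little, and the difference was not called (log2 0.18, 95% interval -0.22 to 0.59, edgeR adjusted p = 0.464). Gja1, connexin 43, which in liver is known from stellate cells, macrophages and bile duct cells more than from hepatocytes, was low throughout, at 1.91, 4.23 and 3.94 CPM in cont. and 9.51, 3.95 and 6.41 CPM in Atg7-KO. These groups overlapped, and the log2 difference of 0.90 (95% interval 0.04 to 1.77) had an edgeR adjusted p of 0.0927. With total library size both genes were called higher (edgeR adjusted p = 0.00807 for Gjb2 and 0.0103 for Gja1), and likewise without the 20 genes with most counts (0.0184 and 0.0172). Since Gja1 passed the filter through the libraries with Cre alone, its calls as higher were favoured by the filter and support nothing.

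The balance of the connexins therefore differed between the groups. There were 3.9, 4.35 and 3.26 counts of Gjb1 for each count of Gjb2 in the cont. libraries and 1.4, 1.61 and 1.86 in Atg7-KO. After length scaling, Gjb1 made up 84.2% ± 1.95 of connexin RNA in cont. and 69.2% ± 3.1 in Atg7-KO, and Gjb2 15.7% ± 1.95 and 30.5% ± 3.01 (SD, n = 3). This shift needs no scaling between libraries and was seen in every library, since the highest Gjb1 share in Atg7-KO (72.2%) lay below the lowest in cont. (82.1%). Gja1 stayed under 0.39% in each library.

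**Figure D3:**
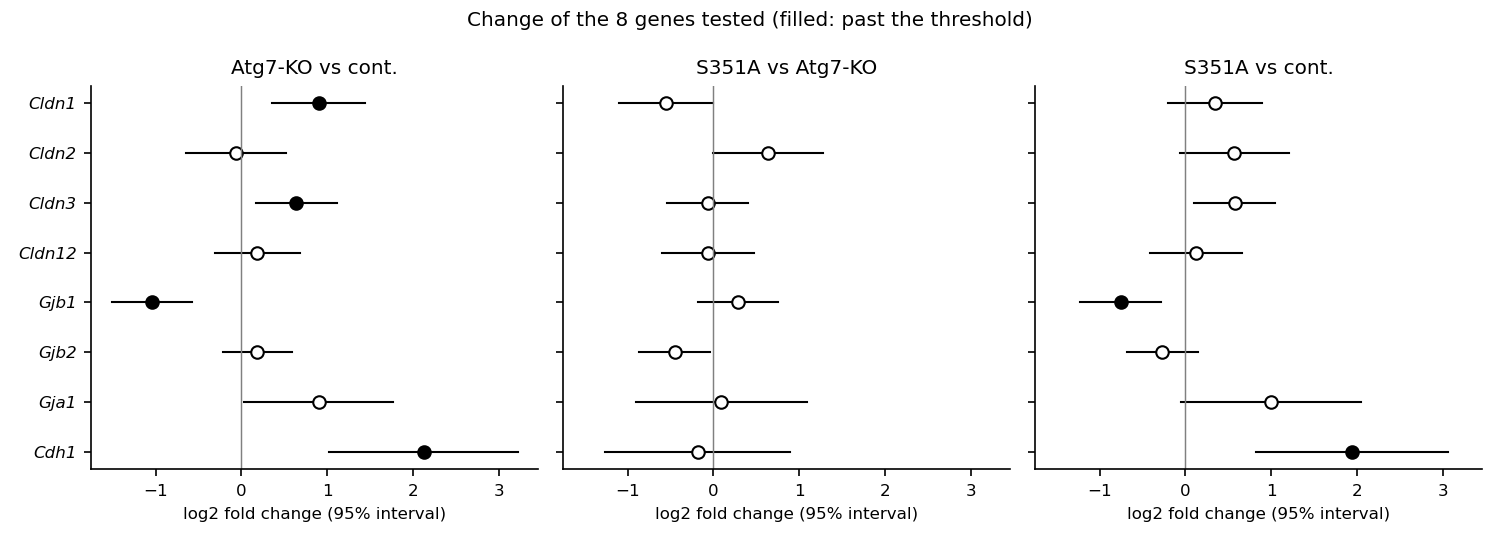
Log2 fold change (horizontal axis) with its 95% interval for the 8 genes tested, in the 3 comparisons named above the panels. Filled points were called, which holds for 4 genes in Atg7-KO against cont., for none in S351A against Atg7-KO and for Gjb1 and Cdh1 in S351A against cont.

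Cdh1 rose most among the genes tested. It lies on the plus strand at chr8:106603351-106670246 and measured 17.8, 7.75 and 58.9 CPM in cont. against 129, 127 and 135 CPM in Atg7-KO. The cont. libraries differed from each other by 7.6-fold, the Atg7-KO libraries by 1.06-fold, and the groups did not overlap. The rise was 4.36-fold (log2 2.12 ± 0.51 SE, edgeR adjusted p = 0.00554) and was called under all 22 alternatives. Its size rests on the cont. library with the highest level, since the log2 fold change was 3.42 without cont. replicate 3.

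Markers of ductular cells moved with Cdh1, Cldn4 and Cldn7. Summed over 12 genes, they came to 80.3 to 133 CPM in the cont. libraries, 925 to 1340 CPM in those of Atg7-KO and 857 to 1330 CPM in those of S351A. Krt19, a keratin of bile duct cells, lay at 3.81, 0.704 and 0.806 CPM in cont. and at 16.7, 9.69 and 11.4 CPM in Atg7-KO. Epcam, an adhesion molecule of the same cells, lay at 0, 0.704 and 1.08 CPM in cont. and at 13.9, 8.26 and 8.24 CPM in Atg7-KO. All 11 ductular markers that passed the filter were called higher in Atg7-KO, but 8 of them passed through the libraries with Cre alone and so had to differ. The 3 that a cont. library also carried over the count limit included Spp1 (29.2, 29.9 and 46.0 CPM in cont. and 880, 603 and 715 CPM in Atg7-KO) and Sox9 (48.9, 14.1 and 29.8 CPM against 283, 191 and 215 CPM). Krt19, Epcam and Sox9 are named after their values were seen. The part of ductular cells in the junction genes was not tested.

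Zonation genes give the other background to these changes, since E-cadherin and connexin 26 are periportal and claudin-2 is pericentral. Of 10 periportal genes, 8 were lower in Atg7-KO, where 18.1% of all genes were, led by Hal (histidine breakdown), Ass1 (urea cycle) and Cyp2f2, with a list median of -1.73 on the log2 scale beside -0.03 for all genes. Of 10 pericentral genes, 9 were lower, led by Slc1a2 (glutamate uptake), Oat (ornithine breakdown) and Cyp2e1, with a median of -2.60. Cdh1 went in the opposite direction to the periportal list, Gjb2 and Cldn2 were not called, and a part of zonation in these genes was not tested.

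The comparison of S351A with Atg7-KO asks what the p62 substitution alters in livers that lack Atg7. None of the 8 genes tested was called, and over all genes 0.00893% were called in this comparison, a single gene. At an unadjusted p under 0.05 edgeR gave 2 of the 8, Cldn1 and Gjb2, beside 6.6% of all genes, and DESeq2 and limma-voom called none. The libraries did not overlap for these same 2 genes, against 16.9% of all genes. Cldn1 measured 138, 142 and 143 CPM in S351A, below each Atg7-KO library and just inside or above the cont. range. Its difference from Atg7-KO was -0.55 on the log2 scale (95% interval -1.10 to -0.01, unadjusted p = 0.0478 and adjusted p = 0.755 in edgeR). Gjb2 measured 150, 138 and 147 CPM in S351A, below all 6 other libraries, and its difference from Atg7-KO was -0.45 (95% interval -0.86 to -0.04, unadjusted p = 0.034 and adjusted p = 0.742 in edgeR).

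Gjb1 was at 331, 432 and 416 CPM in S351A, above the Atg7-KO mean in each library but overlapping that group (log2 0.29, 95% interval -0.18 to 0.76, edgeR adjusted p = 0.867). With Gjb1 a little higher and Gjb2 a little lower, the connexin balance fell between the other groups. Gjb1 made up 75.4%, 81.4% and 79.8% of connexin RNA in the S351A libraries, above the highest Atg7-KO share of 72.2% and below the lowest cont. share of 82.1%. Cldn2 was at 49.4, 28.6 and 23.4 CPM in S351A, a spread set by replicate 1 (log2 0.63 against Atg7-KO, 95% interval -0.01 to 1.27, edgeR adjusted p = 0.756).

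Cldn3 at 195, 255 and 230 CPM, Cldn12 at 46.0, 44.7 and 39.5 CPM, Gja1 at 8.04, 7.45 and 6.17 CPM and Cdh1 at 144, 104 and 96.3 CPM overlapped the Atg7-KO libraries. The interval of the difference from Atg7-KO was narrow for Cldn3 (-0.54 to 0.41 on the log2 scale) and wide for Cdh1 (-1.26 to 0.89), which takes in a fall of 2-fold. Cldn4 had 4, 2 and 4 counts and Cldn7 5, 1 and 2 counts in S351A, where the floor of 3 counts is already 3.45 to 3.73 CPM, and the groups overlapped. When every gene with a count was tested, neither gene was called against Atg7-KO, with wide intervals of the log2 difference (-1.45 to 1.34 for Cldn4 and -1.77 to 1.25 for Cldn7, unadjusted p = 0.941 and 0.734 in edgeR).

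Against cont., S351A livers had 2 of 8 genes called, beside 28.6% of all genes. Cdh1 was higher, as 15.6% of all genes were, and Gjb1 was lower, as 13% of all genes were. With TMM 1748 genes were higher and 1460 lower, with total library size 3541 and 510, and without the 20 genes with most counts 3040 and 638. Under both of these other scalings Cldn1, Cldn2 and Cldn3 were also called higher, as was Gja1, which the filter favoured, and Gjb1 was not called, and Cldn12 was called higher with total library size. The libraries did not overlap for 5 of the 8, against 38% of all genes. These were Cldn3, Gjb1, Gjb2, Cdh1 and Gja1, the last of which passed the filter through the libraries with Cre alone. This comparison shares its cont. libraries with that of Atg7-KO. Cdh1 was 3.84-fold higher (log2 1.94 ± 0.52 SE, edgeR adjusted p = 0.0144). Without cont. replicate 3 the log2 value was 3.23, and without S351A replicate 1 the call was lost (edgeR adjusted p = 0.0618). Gjb1 was 1.69-fold lower (log2 -0.75 ± 0.22 SE, edgeR adjusted p = 0.021). Of 8 hepatocyte markers 7 were also lower in S351A than in cont. (list median -1.12 on the log2 scale), and their part in the fall of Gjb1 was not tested.

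The Gjb1 call in S351A was the less stable of the 2. It was lost without S351A replicate 1 (edgeR adjusted p = 0.0876), with the 6 compared libraries alone (0.106), with libraries thinned to 713835 counts (0.0596), with scaling by total counts (0.352) and with library sizes that leave out the 20 genes with most counts (0.202). Cldn3 was 1.49-fold higher than in cont. with no overlap but was not called (edgeR adjusted p = 0.0675), whereas DESeq2 and limma-voom called it (adjusted p = 0.0277 and 0.0477). When every gene with a count was tested, Cldn4 and Cldn7 were called higher than in cont. (edgeR adjusted p = 0.000125 and 0.00287). In that fit 22% of all genes were called in either direction, and 2153 of 19081 were called higher. Of the 3 S351A libraries, 1 for Cldn4 and 2 for Cldn7 were themselves under the floor of 3 counts, and no fold is given for either gene.

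**Figure D4:**
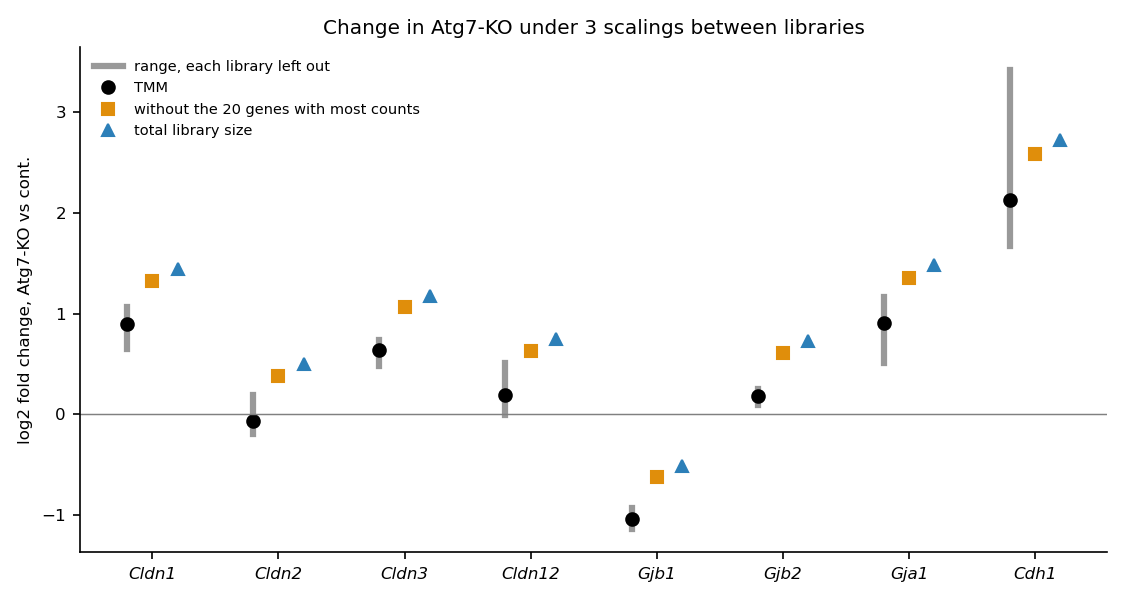
Log2 fold change of the 8 genes tested in Atg7-KO against cont. (vertical axis) with TMM scaling (circles), with library sizes that leave out the 20 genes with most counts (squares) and with total library size (triangles), with a grey bar for the range when each library was left out in turn. The other scalings shift all genes upwards together, Gjb1 stays below 0 and Cdh1 has the widest grey bar, from 1.67 to 3.42.

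Tight junction partners of these proteins were called higher at close to the share of all genes, and none was called lower. Of 24 such genes 22 were tested, and 4 were higher in Atg7-KO and none lower, beside 19.9% and 18.1% of all genes (list median 0.22 on the log2 scale, beside -0.03 for all genes). Ildr1, a receptor of tricellular junctions, is 1 of these 4 but passed the filter through the libraries with Cre alone and so had to differ. It had 0, 0 and 2 counts in cont. and 22, 11 and 6 in Atg7-KO, at least 2.06-fold higher. Cxadr, an adhesion receptor, was 2.05-fold higher (edgeR adjusted p = 0.033). The scaffold gene Inadl was 1.90-fold higher and is named after its values were seen. Occludin (Ocln) and ZO-1 (Tjp1) were not called, with log2 fold changes of -0.33 and -0.13 (edgeR adjusted p = 0.384 and 0.704). In S351A against cont., 4 of the 22 were higher, close to the 15.6% of all genes called higher there, among them Ildr1, Inadl and Amotl1, the last also named after its values were seen.

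At adherens junctions, 2 of 10 partners of E-cadherin were higher in Atg7-KO and none lower, again beside 19.9% and 18.1% of all genes. Pvrl2, which encodes nectin-2, was 1.74-fold higher (edgeR adjusted p = 0.0328), and Vcl, which encodes vinculin, 1.52-fold higher (edgeR adjusted p = 0.0471). The catenins were not called. Their log2 fold changes were 0.54 for Ctnna1 (edgeR adjusted p = 0.0428, with no overlap but a fold of 1.45, under the limit), 0.14 for Jup (0.6), -0.19 for Ctnnb1 (0.465) and -0.20 for Ctnnd1 (0.554). The other classical cadherin of hepatocytes, N-cadherin (Cdh2), lay at 0.02 (0.965). In S351A against cont. none of the 10 was called by edgeR, beside 28.6% of all genes, and 1 had an unadjusted p under 0.05, beside 41% of all genes. Of 6 desmosome genes, Dsg2 was higher in both Atg7-KO (1.86-fold) and S351A (2.15-fold), 1 of 6 beside 19.9% and 15.6% of all genes called higher. Of 5 repressors of Cdh1 transcription 3 were tested, and Zeb2 was 2.15-fold higher in Atg7-KO (edgeR adjusted p = 0.00373) and 2.73-fold higher in S351A (0.00212), 1 of 3 beside the same shares, in the same libraries in which Cdh1 was higher.

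Of 26 other claudins, 2 passed the filter and none was called, nor had any an unadjusted p under 0.05 in edgeR. Among those under the filter, Cldn6, named after its values were seen, had 0, 2 and 1 counts in cont., 16, 9 and 7 in Atg7-KO and 2, 4 and 4 in S351A. Those tested were Cldn5, known from endothelium, and Cldn14, at 7.40 to 15.3 CPM and 3.45 to 19.9 CPM over the 9 libraries. Of 20 other connexins and pannexins 2 passed, Panx1 through the libraries with Cre alone. Panx1 forms membrane channels that release ATP and had 1, 2 and 3 counts in the cont. libraries, 119, 101 and 73 in those of Atg7-KO and 9, 6 and 3 in those of S351A. It was at least 17-fold higher in Atg7-KO than in cont., and at least 3.75-fold higher in S351A, where 1 library was at the floor of 3 counts. All S351A libraries lay below all Atg7-KO libraries (10.3, 7.45 and 3.70 against 27.6, 36.3 and 33.4 CPM), a difference of -2.16 on the log2 scale that was not called (edgeR adjusted p = 0.169). Gja4, an endothelial connexin, was not called (log2 -0.12 in Atg7-KO against cont., edgeR adjusted p = 0.904).

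Markers of the other liver cell types stood as follows in Atg7-KO against cont., where 19.9% of all genes were called higher and 18.1% lower. Of 9 stellate and fibroblast markers 6 were higher, of which Lum passed the filter through the libraries with Cre alone and so had to differ, and their summed level was 285 to 577 CPM in cont. and 1060 to 1500 CPM in Atg7-KO. Of 8 macrophage markers 4 were higher, of 8 endothelial markers Lyve1 was higher and Clec4g, Stab2 and Tek were lower, and of 3 erythroid markers tested 2 were lower. A single one of 7 markers of T, B and NK cells passed the filter and was not called, with no unadjusted p under 0.05 in edgeR. In S351A against Atg7-KO no gene of any list was called by edgeR, although 9 of the 10 pericentral genes had an unadjusted p under 0.05, as 6.6% of all genes did. Of these 9, 8 had higher values in S351A (list median 1.14 on the log2 scale), while Cyp1a2 had lower values in all S351A libraries (log2 -0.87, edgeR adjusted p = 0.62) and is named after its values were seen.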

How the data were processed

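Poly(A) RNA of 9 livers was sequenced as single-end reads. Per the labels and the study's methods, the authors trimmed reads with Trim Galore, aligned them to mm10 with STAR and deposited expected counts per gene from RSEM. Versions, annotation and the strand setting are not given in the sources used here. RNA extraction is named differently in the labels and in the study's methods. In the genotype labels of S351A replicates 2 and 3 the second p62 entry reads S352A and S353A. The titles, which put all 3 in 1 group with S351A on both copies, were followed. The study describes the replicates as biological. Deviations from the group means of same-numbered libraries correlated at 0.235, 0.175 and 0.16 between S351A and cont., at 0.248, 0.091 and -0.041 between Atg7-KO and cont. and at 0.306, 0.074 and 0.092 between S351A and Atg7-KO. Differently numbered libraries gave -0.26 to 0.094, -0.265 to 0.212 and -0.199 to 0.124 in the same order. Deviations within a group sum to 0, which pushes these other values down. Libraries numbered 1 were male and those numbered 2 female in all 3 groups. The correlations therefore cannot show a pairing by number, and the labels name none.

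Expected counts were rounded to whole numbers and tested with edgeR 4.0.16 (R 4.3.3, quasi-likelihood F test, TMM) in 1 fit of all 9 libraries, as 3 pairwise comparisons, after filterByExpr (minimum count 10, minimum total 15), which kept 11199 of 24411 genes. The thresholds are those of the study, which used DESeq2. DESeq2 1.42.0, limma-voom (limma 3.58.1), other scalings and filters, a replicate block, sex, thinned libraries and leaving out each library were alternatives. Intervals are 95%. Exon lengths come from GENCODE M21. Per kilobase levels and shares divide by the summed exon length of the gene. No 75-base stretch of a member's exons occurred in another gene. The floor of 3 counts covers counting error only.

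The named genes are all 10 members, Atg7 as a check, and from each list up to 3 genes called higher and 3 called lower in Atg7-KO against cont. with the largest fold change, of which 1 is not reported here. Genes outside this rule, among them those named as not called (Ocln, Tjp1, the catenins, Cdh2, Cldn5, Cldn14 and Gja4), were named after their values were seen. Members and lists were chosen with earlier results of these data known.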

Additional observations from a re-analysis of the deposited data

How the results depend on the processing

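Of 521 alternative values for 24 member differences, 470 kept their direction and side of the threshold, 18 lost a call, 20 gained one and 13 changed sign, all 13 in differences that were not called. Cldn2 in Atg7-KO against cont. became 0.5018 with total library size, 0.3794 when the 20 most abundant genes were left out of it, 0.0119 where each library had to hold 10 counts, 0.0594 with sex as a covariate, 0.0819 after thinning, and lay from -0.2 to 0.193 with a library left out (positive without cont. replicate 3). Gjb2 in S351A against cont. became 0.2235 and 0.1228 under the first 2 of these scalings. Cldn12 became 0.1176 in S351A against Atg7-KO after thinning. With a library left out, Cldn12 lay from -0.0103 to 0.5138 in Atg7-KO and from -0.0803 to 0.4437 in S351A against cont. (negative without cont. replicate 2), and against Atg7-KO, S351A values lay from -0.1681 to 0.4871 for Gja1 (negative without Atg7-KO replicate 2) and from -0.1551 to 0.0279 for Cldn3 (positive without S351A replicate 1). Total library size moved the median of all genes by 0.55 in Atg7-KO and 0.50 in S351A against cont., and leaving out the 20 most abundant genes by 0.43 and 0.39. The cause of these changes was not tested.

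The number of members called in Atg7-KO against cont. was 7 without the 20 most abundant genes and 2 at an adjusted p of 0.01, and 3 to 6 with a library left out. In S351A against cont. it was 6 with total library size, 5 without the 20 most abundant genes, 4 with no filter, 1 with the 6 compared libraries alone, 0 at an adjusted p of 0.01, and 1 to 5 with a library left out. The higher counts with no filter, or without cont. replicate 1, Atg7-KO replicate 3 or S351A replicate 2 or 3, include Cldn4 and Cldn7, which then entered the test. The calls gained in Atg7-KO with total library size or without the 20 most abundant genes were Cldn12, Gjb2 and Gja1. Without S351A replicate 1 the call in S351A was Cldn4 alone. Over all genes, requiring 10 counts in every library gave 2504, 0 and 1941 calls in Atg7-KO against cont., S351A against Atg7-KO and S351A against cont., thinning 2614, 2 and 2086, and an adjusted p of 0.01 2797, 0 and 1741. In S351A against Atg7-KO there were 98 calls with no filter, 39 with DESeq2, 0 with limma-voom, 10 with the 6 libraries alone and 0 to 3 with a library left out. In S351A against cont. there were 1849 with the 6 libraries alone and 2098 to 3572 with a library left out. The Cldn1 share of claudin RNA without length scaling differed by 6.15 points in Atg7-KO against cont. and by -8.54 points in S351A against Atg7-KO.

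With a replicate block there were 4313, 1 and 3406 genes called in Atg7-KO against cont., S351A against Atg7-KO and S351A against cont., and 4, 0 and 2 members, so a block by replicate number changed no call of a member. Low counts limit Cldn4 and Cldn7 most, above all in the S351A libraries.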
